A study of Mus musculus with 12 samples.

Results

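The 10 genes described here are *Trp53*, which encodes the transcription factor p53, and 9 genes that p53 is known to activate, *Cdkn1a*, *Mdm2*, *Ccng1*, *Bax*, *Bbc3*, *Eda2r*, *Phlda3*, *Trp53inp1* and *Zmat3*. They were chosen by symbol, with earlier results of these data known, and are 10 of the 24411 genes in the table of counts. Their RNA was measured by poly(A) sequencing of whole livers from mice at 3 months of age, with 3 mice per genotype. Cont. mice were *Atg7* flox/flox. *Atg7*-KO mice were *Atg7* flox/flox;Alb-*Cre*, in which the albumin promoter drives Cre in hepatocytes and *Atg7*, an essential autophagy gene, is deleted there. *Atg7*-KO;*p62*T352A mice, called compound mutants below, carried in addition, on both alleles, the T352A exchange in the endogenous gene of p62 (*Sqstm1*), an autophagy receptor. Both copies of *Atg7* were thus floxed in all 9 mice, the background was C57BL/6, and the exchange had been made by prime editing in embryonic stem cells. The other liver cells of the knockout mice keep *Atg7*, and the p62 exchange is present in every cell. A set of 3 mice labelled *p62*T352A without Alb-*Cre* was not analysed here.

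p53 is kept low in unstressed cells because Mdm2, itself a p53 target, marks it for degradation. DNA damage and other stresses stabilize the protein, mostly without a change in its mRNA, and p53 then binds response elements made of paired decamers and activates genes that stop the cell cycle, repair DNA or start apoptosis. In liver, p53 is known to restrain the division of hepatocytes, and *Cdkn1a* is raised in many kinds of chronic liver injury.

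The targeted gene was checked first. *Atg7* had 810, 467 and 504 counts in cont. mice, 209, 233 and 281 in *Atg7*-KO mice and 416, 391 and 452 in compound mutants. Its level was lower than in cont. in both knockout genotypes, *Atg7*-KO (log2 fold change -2.20, SE 0.17, adjusted p = 2.55e-05) and compound mutants (log2 fold change -0.75, SE 0.16, adjusted p = 0.0206), and it was higher in the latter than in the former (log2 fold change 1.45, SE 0.17, adjusted p = 1.64e-04). The remaining *Atg7* RNA therefore differed between the 2 knockout genotypes, and its part in their other differences cannot be told apart from that of the p62 exchange. The paper's immunoblots of liver showed hardly any ATG7 protein or LC3-II in the knockout background, with or without the p62 exchange. *Sqstm1* was higher than in cont. in *Atg7*-KO (log2 fold change 1.24, SE 0.22, adjusted p = 0.00189) and had a log2 fold change of 0.49 (SE 0.22, adjusted p = 0.177) in compound mutants. The libraries held between 9671073 and 23285134 counts, and both ends of that range were cont. mice. Cont. mouse 1, the deepest library, stood apart from the other cont. mice, with a chi-square per degree of freedom over genes of 196 and 305 against cont. mouse 2 and 3, and 52.0 between these, a measure that also grows with depth. Pairs within *Atg7*-KO had 13.3 to 21.6 and pairs of compound mutants 55.1 to 115. Counts of *Xist* ranged from 7 to 27.7 in mice numbered 1 and were 8578 or more in the other 6, so each genotype had 1 mouse of one kind and 2 of the other. In cont. mouse 2, which had 12492 *Xist* counts, 4 Y-linked genes summed to 58.0 CPM, against 0.81 to 18.1 in the other 5 mice with high *Xist* and 102 to 159 in the mice numbered 1. Hepatocyte markers were present in every mouse. Unless another fit or an unadjusted p is named, p-values are Benjamini-Hochberg adjusted values of edgeR's quasi-likelihood test over 13922 genes. A gene was called at an adjusted p under 0.05 with a fold change over 1.5. Levels are given as normalized CPM, counts scaled to library size with TMM factors. All 10 genes passed the filter on low counts.

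The promoters of the genes are shown because p53 acts through short sequence elements. RefSeq windows from 250 bases before to 50 bases after a transcription start (GRCm38.p6) matched 8 of the 10 genes, in 11 windows. *Trp53inp1* and *Zmat3* were not among them. The p53 decamer consensus, a stretch of 10 bases that reads the same on both strands, was found in 5 of the 11 windows, 1 each of 5 genes, while 8.356% of all 32851 windows held it. A site of 20 bases, made of 2 adjoining decamers with at most 1 letter off, was found in 2 of the 11 windows, those of *Cdkn1a* and *Ccng1*, and in 0.067% of all windows. In the stretches below, read 5′ to 3′ on the strand of the gene, capitals mark the matches. They lie at chr17:29090869-29090968 (plus strand, *Cdkn1a*), chr11:40755417-40755516 (minus strand, *Ccng1*), chr11:69580254-69580313 (plus strand, *Trp53*), chr10:117710914-117710973 (minus strand, *Mdm2*) and chr7:45467069-45467128 (minus strand, *Bax*).
Cdkn1a: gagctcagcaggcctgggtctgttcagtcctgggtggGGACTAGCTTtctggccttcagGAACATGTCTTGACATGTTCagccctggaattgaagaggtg
Ccng1: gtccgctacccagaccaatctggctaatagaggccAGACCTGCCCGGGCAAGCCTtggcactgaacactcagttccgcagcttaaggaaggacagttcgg
Trp53: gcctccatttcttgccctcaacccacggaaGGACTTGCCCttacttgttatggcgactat
Mdm2: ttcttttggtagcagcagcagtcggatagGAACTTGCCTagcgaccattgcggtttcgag
Bax: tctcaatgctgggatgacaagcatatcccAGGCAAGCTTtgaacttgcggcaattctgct
*Cdkn1a* had a window at chr17:29090729-29091028 and another downstream at chr17:29093519-29093818. The upstream window held both a single decamer 73 bases before its transcription start and the 20-base site 51 bases before it. The window of *Ccng1* held the 20-base site 195 bases before the start. *Trp53*, *Mdm2* and *Bax* each held a single decamer, at 75, 186 and 201 bases before the start. The other window of *Cdkn1a* and those of *Phlda3*, *Bbc3* and *Eda2r* do not hold these letters. Sequence outside the windows was not searched. For *Phlda3* and *Bbc3*, the bases after the start of the window were not found near the start of any GENCODE transcript of the gene.

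The deletion of *Atg7* was compared with cont. first. The levels of 5 of the 10 genes rose and none fell, beside 43.7% of all genes tested that were called in either direction and 21.6% that were called higher (22.1% lower). The genes that rose were *Phlda3*, *Eda2r*, *Zmat3*, *Cdkn1a* and *Ccng1*, by between 3.47-fold and 28.8-fold. The median log2 fold change of the 10 genes was 1.28, against -0.03 over all genes tested. The mice of both genotypes did not overlap for 6 of the 10 genes, against 55.5% of all genes, so a share near that of the whole table was called, and all 5 calls were upward. The remaining 5, *Trp53*, *Mdm2*, *Bax*, *Bbc3* and *Trp53inp1*, did not pass the test.

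**Figure D1:**
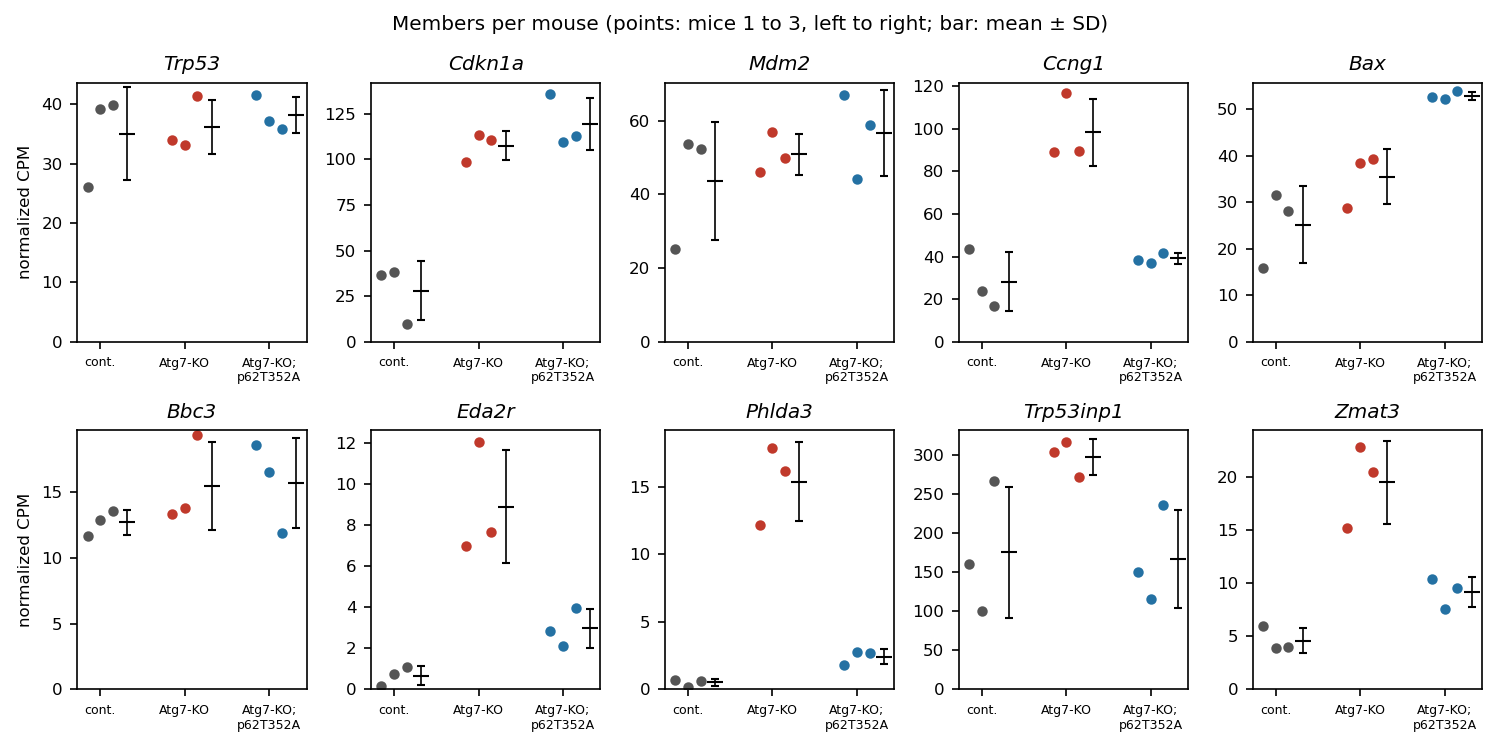
Normalized CPM (vertical axes, linear, each from 0) of the 10 genes in the 3 mice of each genotype (points, mice 1 to 3 from left to right), with the mean and SD. Compound mutants are labelled *Atg7*-KO;p62T352A. The *Atg7*-KO mice stand above both other genotypes for *Ccng1*, *Eda2r*, *Phlda3* and *Zmat3*, both knockout genotypes stand above cont. for *Cdkn1a*, and the compound mutants are highest for *Bax*.

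*Trp53* itself lies on chromosome 11 (69580359 to 69591873, GRCm38). It had 26.0, 39.2 and 39.8 normalized CPM in the 3 cont. mice, 33.9, 33.1 and 41.3 in *Atg7*-KO mice and 41.6, 37.2 and 35.8 in compound mutants. The mice of the 3 genotypes overlapped. The log2 fold change was 0.05 (95% interval -0.40 to 0.49, adjusted p = 0.861) in *Atg7*-KO and 0.13 (95% interval -0.31 to 0.57, adjusted p = 0.718) in compound mutants, both against the same cont. mice. The p53 protein was not analysed here.

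*Mdm2* (chromosome 10, 117688875 to 117710758) encodes the ubiquitin ligase of p53 and closes the feedback loop. It had 25.3, 53.7 and 52.2 normalized CPM in cont. mice. The *Atg7*-KO mice had 46.0, 57.0 and 49.8 and the compound mutants 66.9, 44.1 and 58.8. Cont. mouse 1 was the lowest of the 9 mice and the other 8 overlapped, and neither genotype passed the test against cont. (log2 fold change 0.22, 95% interval -0.41 to 0.86, adjusted p = 0.544 in *Atg7*-KO, and 0.38, 95% interval -0.26 to 1.01, adjusted p = 0.423 in compound mutants).

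*Cdkn1a* (chromosome 17, 29090976 to 29100727) encodes p21, the inhibitor of cyclin-dependent kinases through which p53 arrests the cell cycle. Cont. mice had 36.5, 38.2 and 9.67 normalized CPM, with mouse 3 the lowest. *Atg7*-KO mice had 98.4, 113 and 111 and compound mutants 136, 110 and 113. All 6 knockout mice stood above all cont. mice, and the 2 knockout genotypes overlapped. The level was 3.81-fold that of cont. in *Atg7*-KO (log2 fold change 1.93, SE 0.41, adjusted p = 0.0046) and 4.23-fold in compound mutants (log2 fold change 2.08, SE 0.42, adjusted p = 0.0157). Between the knockout genotypes the log2 fold change was 0.15 (95% interval -0.74 to 1.04, adjusted p = 0.766), so differences within that interval cannot be told from none. The gene overlaps AC167363.2 on the opposite strand, with which it shares 5.64% of its 75-base stretches (7.05% occur in some other gene), and whether reads were counted by strand is not given in the sources used here.

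*Ccng1* (chromosome 11, 40748552 to 40755311) encodes cyclin G1, a p53 target that acts back on Mdm2. It had 43.7, 24.0 and 17.0 normalized CPM in cont. mice and 89.0, 117 and 89.5 in *Atg7*-KO mice, a 3.47-fold rise (log2 fold change 1.79, SE 0.31, adjusted p = 0.0015). In compound mutants it had 38.6, 37.0 and 41.8, within the range of the cont. mice (log2 fold change 0.46, SE 0.30, adjusted p = 0.349 against cont.). *Ccng1* was thus 2.51-fold lower in compound mutants than in *Atg7*-KO (log2 fold change -1.33, SE 0.30, adjusted p = 0.00517), without overlap, whereas *Cdkn1a*, the other cell-cycle gene with a 20-base site in its window, was not called between them. That the 2 genes differ in this comparison was not tested.

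Of the genes of the apoptotic pathway, *Bax* (chromosome 7, 45461697 to 45466898) encodes a protein that opens the outer membrane of mitochondria. It had 15.8, 31.6 and 28.0 normalized CPM in cont. mice, 28.7, 38.5 and 39.3 in *Atg7*-KO mice and 52.5, 52.1 and 53.8 in compound mutants. Its level was highest in compound mutants, above every other mouse, and *Atg7*-KO overlapped with cont. It rose 2.11-fold in compound mutants against cont. (log2 fold change 1.07, SE 0.25, adjusted p = 0.0262), and the log2 fold change was 0.50 (SE 0.25, adjusted p = 0.125) in *Atg7*-KO against cont. and 0.57 (SE 0.25, adjusted p = 0.0756) between the knockout genotypes. The latter difference was called with the replicate number as a block (log2 fold change 0.60, adjusted p = 0.0485), with the 2 genotypes alone (0.59, adjusted p = 0.00502) and with a term for *Xist* (0.60, adjusted p = 0.0294). These were 3 of 12 alternative settings, and it was called in 0 of the 9 fits that left out 1 mouse. *Bax* overlaps Gm45808 on the same strand and shares with it 6.84% of its 75-base stretches.

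*Bbc3* (chromosome 7, 16308393 to 16318205) encodes PUMA, which frees Bax and Bak from their inhibitors. The 3 cont. mice had 11.7, 12.9 and 13.5 normalized CPM, the *Atg7*-KO mice 13.3, 13.8 and 19.3 and the compound mutants 18.6, 16.5 and 11.9. The genotypes overlapped and no comparison passed the test (log2 fold change 0.29, 95% interval -0.20 to 0.78, adjusted p = 0.304 in *Atg7*-KO, and 0.30, 95% interval -0.19 to 0.80, adjusted p = 0.401 in compound mutants, against cont.).

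*Eda2r* (X chromosome, 97333840 to 97377216) encodes a receptor of the TNF receptor family that binds ectodysplasin A2. It had 3, 8 and 10 counts in cont. mice, 144, 293 and 180 in *Atg7*-KO mice and 40, 30 and 61 in compound mutants. The 3 genotypes were fully separated, in the order cont., compound mutants and *Atg7*-KO. In normalized CPM the means were 0.676 ± 0.469, 2.98 ± 0.946 and 8.89 ± 2.75 (SD, n = 3 each). *Eda2r* rose 14.3-fold in *Atg7*-KO (log2 fold change 3.84, SE 0.53, adjusted p = 4.61e-04) and 4.82-fold in compound mutants (log2 fold change 2.27, SE 0.54, adjusted p = 0.0278), both against cont. It was 2.98-fold lower in compound mutants than in *Atg7*-KO (log2 fold change -1.57, SE 0.44, adjusted p = 0.0132).

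*Phlda3* (chromosome 1, 135766119 to 135769136) encodes a small lipid-binding protein that keeps the survival kinase AKT from the membrane. It showed the largest change of the 10 genes in *Atg7*-KO. Cont. mice had 12, 2 and 6 counts, *Atg7*-KO mice 251, 434 and 378 and compound mutants 25, 40 and 41. The normalized CPM were 0.688, 0.189 and 0.659, then 12.1, 17.8 and 16.1, and then 1.79, 2.80 and 2.68, without overlap between any of the genotypes. *Phlda3* rose 28.8-fold in *Atg7*-KO (log2 fold change 4.85, SE 0.39, adjusted p = 3.11e-05) and 4.55-fold in compound mutants (log2 fold change 2.18, SE 0.40, adjusted p = 0.0114). It was 6.33-fold lower in the latter than in the former (log2 fold change -2.66, SE 0.32, adjusted p = 2.14e-04). The low counts of the cont. mice limit the precision of both rises.

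*Trp53inp1* (chromosome 4, 11156431 to 11174379) encodes a stress protein that promotes p53 phosphorylation and also binds proteins of the autophagosome. It had 161, 100 and 267 normalized CPM in cont. mice, 305, 317 and 273 in *Atg7*-KO mice and 150, 115 and 237 in compound mutants. The *Atg7*-KO mice were the 3 highest, with 1 cont. mouse just below them. The difference did not pass the test against cont. (log2 fold change 0.76, SE 0.36, adjusted p = 0.109), nor did that between the knockout genotypes (log2 fold change -0.83, SE 0.36, adjusted p = 0.0754), although neither pair of genotypes overlapped. With the replicate number as a block both differences were called (log2 fold change 0.90, adjusted p = 0.0434, and -0.94, adjusted p = 0.0303).

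*Zmat3* (chromosome 3, 32334792 to 32366014) encodes a zinc-finger protein that binds RNA. It had 5.96, 3.88 and 3.96 normalized CPM in cont. mice, 15.2, 22.8 and 20.5 in *Atg7*-KO mice and 10.4, 7.57 and 9.59 in compound mutants. As with *Eda2r* and *Phlda3*, the 3 genotypes were separated with compound mutants between the others. *Zmat3* rose 4.19-fold in *Atg7*-KO (log2 fold change 2.07, SE 0.25, adjusted p = 2.33e-04) and 1.97-fold in compound mutants (log2 fold change 0.98, SE 0.25, adjusted p = 0.0341), where it was not called with the replicate number as a block (adjusted p = 0.0679). The fall from *Atg7*-KO to compound mutants was 2.13-fold (log2 fold change -1.09, SE 0.24, adjusted p = 0.00412).

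In compound mutants against cont., 5 of the 10 genes were therefore called, all higher (*Cdkn1a*, *Eda2r*, *Phlda3*, *Bax* and *Zmat3*), beside 11.6% of all genes that were called and 6.25% that were called higher (5.34% lower). The median log2 fold change of the 10 genes was 0.72 against 0.00 over all genes, and the mice did not overlap for 5 genes, against 26.6% of all genes. These calls were not all kept when 1 mouse was left out, and calls over all genes moved too. From 870 higher and 743 lower they went to 244 and 191 without compound mutant 3. They were 1514 and 1731 without cont. mouse 1. Without any 1 of the *Atg7*-KO mice, which are in the fit but not in this comparison, they were 375 to 400 and 372 to 381. The log2 fold changes of the 5 genes stayed at 0.79 or above in all 9 such fits. Of the 9 fits that each left out 1 mouse, *Phlda3* was called in 9, *Cdkn1a* in 8, *Bax* in 4, *Eda2r* in 3 and *Zmat3* in 2. The adjusted p of the lost calls was 0.0536 to 0.0836 for *Bax*, which was kept without each cont. mouse and without *Atg7*-KO mouse 1, 0.0502 to 0.0952 for *Eda2r*, which was kept without cont. mouse 1 or 3 or compound mutant 2, and 0.0522 to 0.134 for *Zmat3*, which was kept without cont. mouse 1 or compound mutant 2. *Cdkn1a* was not called without compound mutant 3 (adjusted p = 0.0524). Without cont. mouse 2, the mouse with both *Xist* and Y-linked RNA, *Zmat3* (log2 fold change 0.79, adjusted p = 0.134) and *Eda2r* (log2 fold change 2.38, adjusted p = 0.0642) were not called and 3 of the 10 genes were. *Ccng1* became higher than in cont. without cont. mouse 1 (log2 fold change 0.93, adjusted p = 0.00794), the cont. mouse with its highest level, so that 6 of the 10 genes were called. With only these 2 genotypes in the fit, none of the 10 genes was called by edgeR (23 genes higher and 27 lower in all), while 5 of the 10 had an unadjusted p under 0.05 and the lowest adjusted p was 0.0835.

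In compound mutants against *Atg7*-KO, 4 of the 10 genes fell (*Phlda3*, *Eda2r*, *Ccng1* and *Zmat3*) and none rose, beside 51.0% of all genes called and 26.2% called lower. The median log2 fold change was -0.41 for the 10 genes and 0.00 for all genes, and the mice did not overlap for 6 genes, against 73.2% of all genes. The share of these genes that was called was thus below that of the table, and *Cdkn1a*, *Bax*, *Bbc3*, *Mdm2* and *Trp53* had log2 fold changes from 0.02 to 0.57 that did not pass the test, of which those of *Bbc3* and *Trp53* went below 0 with upper-quartile scaling (-0.13 and -0.058). The calls of *Phlda3*, *Ccng1* and *Zmat3* held in all 9 fits that left out 1 mouse, and that of *Eda2r* in 7, with adjusted p = 0.0637 without *Atg7*-KO mouse 2 and 0.0525 without compound mutant 2. The 5 calls in *Atg7*-KO against cont. held in all 9 such fits, the one without cont. mouse 2 included, and also without all mice numbered 1.

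**Figure D2:**
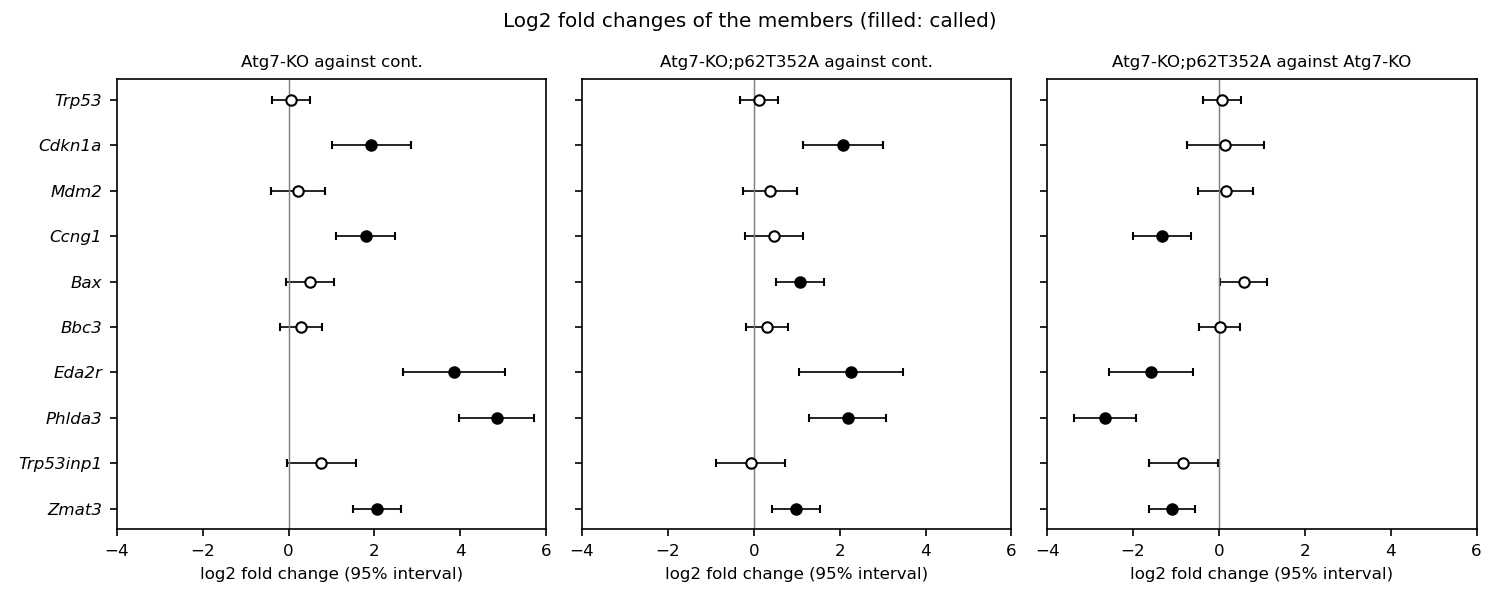
Log2 fold change (horizontal axes) of the 10 genes in the 3 comparisons, with 95% intervals from the quasi-likelihood fit; filled points are called genes. The first and second panels share the cont. mice. *Cdkn1a* lies at 1.93 and 2.08 in those panels and at 0.15 in the last, whereas *Phlda3* lies at 4.85, 2.18 and -2.66.

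Scaled by the length of the longest principal transcript, the levels differed widely between the genes. In cont. mice *Trp53inp1* (32.5 normalized CPM per kb) and *Bax* (29.0) were highest, followed by *Trp53* (19.8), *Mdm2* (14.1), *Cdkn1a* (13.5), *Ccng1* (8.04) and *Bbc3* (6.99), and each of these overlapped with its neighbour in the order. *Zmat3* (0.590), *Phlda3* (0.357) and *Eda2r* (0.142) were far below, and of these *Phlda3* and *Eda2r* overlapped. In *Atg7*-KO mice *Cdkn1a* (51.7 normalized CPM per kb, 47.3 to 54.5) stood second after *Trp53inp1* (55.2, 50.5 to 58.7), with which it overlapped, and *Phlda3* (10.7) was at the level of *Bbc3* (8.53). In compound mutants *Bax* (60.9 normalized CPM per kb, 60.1 or more in each mouse) and *Cdkn1a* (57.4, 52.7 to 65.3) were highest and overlapped, and both stood above *Trp53inp1* (31.0, 21.3 to 43.9). *Eda2r* had the lowest mean in each genotype, at 1.87 in *Atg7*-KO, where it overlapped with *Zmat3* (2.50), and at 0.627 in compound mutants, where it was below *Zmat3* (1.18) in every mouse.

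The genes whose pattern over the 9 mice was most like that of *Cdkn1a*, among 12820 genes with a mean of at least 1 normalized CPM, were *Vasn*, *Sox9* and *Med11*, with root mean square differences of z-scored log2 CPM of 0.194, 0.278 and 0.281. In cont., *Atg7*-KO and compound mutants, *Vasn* had means of 8.64, 13.2 and 14.6 normalized CPM and *Med11* of 7.84, 11.1 and 10.9. *Sox9*, a transcription factor of bile duct cells and of reactive hepatocytes, had means of 4.87, 25.7 and 30.8. It is 1 of the 7 cholangiocyte markers summed below. Of these, 4 were called lower and none higher in compound mutants against *Atg7*-KO, beside 26.2% of all genes called lower. For *Trp53* they were *Cln3* (0.350), *Meis3* (0.387) and *Zfp78* (0.399), none of which differed in mean by more than 1.5-fold between genotypes.

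In whole liver, fewer cells of a type and less RNA per cell cannot be told apart, and markers of several cell types differed between the same genotypes. Of 15 genes of proliferating cells, 14 rose in *Atg7*-KO (median log2 fold change 3.63), where 21.6% of all genes were called higher, and their summed level was 224 to 344 normalized CPM there, against 28.2 to 38.5 in cont. and 40.0 to 75.1 in compound mutants, in which 5 of 15 were called higher than in cont., beside 6.25% of all genes. The 7 cholangiocyte markers summed to 66.9 to 70.1, 849 to 1046 and 205 to 290 normalized CPM in cont., *Atg7*-KO and compound mutants. In the same order, the sums were 297 to 435, 1115 to 1189 and 203 to 407 for 10 macrophage markers, and 252 to 310, 913 to 1067 and 367 to 606 for 9 stellate cell markers. The lymphocyte markers, 10 in number, summed to 19.4 to 37.8, 68.6 to 77.6 and 26.8 to 32.8, and the neutrophil markers, 5 of 6 of which were in the table, to 4.35 to 10.3, 10.3 to 15.7 and 7.07 to 9.66. The 9 hepatocyte markers in the table, among them *Alb* and *Ttr*, went the other way, with sums of 78875 to 137104 normalized CPM in cont., 41388 to 44632 in *Atg7*-KO and 118050 to 137081 in compound mutants. The 8 endothelial markers summed to 311 to 364, 320 to 332 and 165 to 202. Single markers could go against their sum. In *Atg7*-KO against cont., 1 of the 10 macrophage markers was called lower and 7 higher, and 3 of the 8 endothelial markers were called higher and 1 lower. In compound mutants against *Atg7*-KO, 2 macrophage markers were called higher and 7 lower. No marker was at 0 in all mice. The part of these shifts in the levels of the p53 genes was not tested.

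To look beyond the 10 genes, 50 other known p53 targets, also listed with earlier results of these data known, were grouped by function. In *Atg7*-KO against cont., 28 of 50 were called (56.0%), 16 higher and 12 lower, with a median log2 fold change of 0.14, beside 43.7% of all genes called, 21.6% higher and 22.1% lower, and a median of -0.03. The called genes of this list moved in both directions.

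Of the 10 targets of the cell-cycle group 50% were called, beside 43.7% of all genes, 21.6% higher and 22.1% lower. Of these targets, 5 rose and none fell. They were *Ckap2* (log2 fold change 4.79, SE 0.74, adjusted p = 8.55e-04), *Psrc1* (4.55, SE 0.71, adjusted p = 8.65e-04), *Sfn* (3.86, SE 0.26, adjusted p = 1.51e-05) and, named after their values were seen, *Gtse1* (2.16) and *Plk2* (1.60). *Sfn* encodes 14-3-3 sigma, which holds cyclin B out of the nucleus, and *Plk2* a kinase of centriole duplication. *Ckap2*, *Psrc1* and *Gtse1* encode proteins of the mitotic spindle that are made in dividing cells. Without 1 mouse the log2 fold change of *Psrc1* went to 3.74 (cont. mouse 1) or 5.74 (cont. mouse 2) and that of *Ckap2* to 5.52 (cont. mouse 3), and all stayed called. *Sfn* had 1.32 ± 0.358 normalized CPM in cont. and 18.7 ± 2.14 in *Atg7*-KO mice, and *Ckap2* 0.464 ± 0.361 and 11.9 ± 4.06 (SD, n = 3 each).

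Of 14 targets of the cell-death group, 4 rose and 2 fell, a share (42.9%) near the 43.7% of all genes. The largest rises were those of *Tnfrsf10b*, a death receptor for TRAIL, from 0.653 ± 0.367 to 13.9 ± 2.92 normalized CPM (log2 fold change 4.52, SE 0.43, adjusted p = 6.76e-05), of *Pmaip1*, which encodes NOXA (2.31, SE 0.33, adjusted p = 5.63e-04), and of *Dram1*, a lysosomal membrane protein that promotes autophagy (2.08, SE 0.41, adjusted p = 0.00298). *Cdip1* fell from 228 ± 122 to 53.5 ± 2.91 normalized CPM (log2 fold change -2.09, SE 0.39, adjusted p = 0.00216).

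The 17 targets of the metabolism group included 4 that rose and 7 that fell. The share called was 64.7%, beside 43.7% of all genes, 21.6% higher and 22.1% lower. *Ak1*, an adenylate kinase, rose by 2.59 (SE 0.36, adjusted p = 4.97e-04) on the log2 scale, *Abhd4* by 1.95 (SE 0.15, adjusted p = 2.5e-05) and *Sesn2*, a sestrin that restrains mTORC1 and is also induced by other stresses, by 1.80 (SE 0.20, adjusted p = 1.66e-04). *Sco2*, which is needed to assemble cytochrome c oxidase, fell from 117 ± 45.0 to 13.9 ± 2.46 normalized CPM (log2 fold change -3.07, SE 0.31, adjusted p = 1.02e-04). *Dcxr* (-2.15, SE 0.33, adjusted p = 8.67e-04) and the liver glutaminase *Gls2* (-1.54, SE 0.20, adjusted p = 3.04e-04) fell as well. Hepatocyte markers were lower in the same mice, and a link to these falls was not tested.

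Of 9 targets that act in DNA repair and synthesis, 3 rose and 3 fell. The share called was 66.7%, beside 43.7% of all genes, 21.6% higher and 22.1% lower. *Pcna*, the sliding clamp of DNA polymerases, rose from 26.4 ± 8.40 to 83.6 ± 8.45 normalized CPM (log2 fold change 1.66, SE 0.24, adjusted p = 5.39e-04), and *Polk* (1.14, SE 0.24, adjusted p = 0.00401) and *Rrm2b* (0.97, SE 0.26, adjusted p = 0.013) rose less. *Ercc5*, a nuclease of nucleotide excision repair (log2 fold change -1.65, SE 0.43, adjusted p = 0.0109), and *Rev3l* (-0.69, SE 0.22, adjusted p = 0.0296) fell. The calls of *Rrm2b* and *Rev3l* were lost in 2 and 4 of the 9 fits that left out 1 mouse. For *Rrm2b* these were the fits without cont. mouse 2 and without *Atg7*-KO mouse 1, with adjusted p = 0.0604 and 0.068 as lowest and highest. For *Rev3l* they were those without cont. mouse 3 and without each of the *Atg7*-KO mice, with 0.0678 to 0.102, and the call of *Rev3l* was also lost with upper-quartile scaling, with a minimum of 10 counts per mouse and with glmTreat, a test of a fold change over 1.5 (0.0545 to 0.303), which also ended that of *Rrm2b* (0.0854).

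The called regulators of p53 moved one way in *Atg7*-KO. Of 19 listed, *Cdkn2a*, *Trp63* and *Trp73* did not pass the filter on low counts, and of the other 16, 5 fell and none rose. The share called, 31.2%, was below the 43.7% of all genes, of which 22.1% were called lower. The genes that fell were *Mdm4*, the partner of Mdm2 that blocks p53, from 164 ± 107 to 35.8 ± 1.84 normalized CPM (log2 fold change -2.19, SE 0.51, adjusted p = 0.00699), *Trp53bp2* (-1.00, SE 0.27, adjusted p = 0.0128), *Usp7*, a deubiquitinase of Mdm2 and p53 (-0.92, SE 0.18, adjusted p = 0.00253), and, named after their values were seen, the acetyltransferase gene *Crebbp* (-1.85) and the deacetylase gene *Sirt1* (-0.75). The list thus holds both inhibitors and activators of p53 among the genes that fell. *Mdm4* ranged from 44.2 to 252 normalized CPM among the cont. mice alone. The call of *Trp53bp2* was lost without *Atg7*-KO mouse 1 (adjusted p = 0.051) and with glmTreat (0.0778).

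Genes of DNA damage signalling, 32 in number, included 8 that rose and 3 that fell in *Atg7*-KO. The 34.4% called was below the 43.7% of all genes. *Clspn*, an adaptor of the checkpoint kinase Chk1, rose from 0.351 ± 0.0250 to 2.92 ± 0.374 normalized CPM (log2 fold change 3.03, SE 0.35, adjusted p = 1.84e-04), and *Fanci* of the Fanconi anaemia pathway rose by 2.96 (SE 0.50, adjusted p = 0.00139) on the log2 scale. Both genes are also known to be transcribed mainly around S phase. The proliferation markers rose in the same mice, and a link between these rises was not tested. The kinase genes *Prkdc* (log2 fold change -1.20, SE 0.24, adjusted p = 0.0034) and *Atr* (-0.72, SE 0.25, adjusted p = 0.0365) fell, and so did *Brca2* (-1.41, SE 0.33, adjusted p = 0.00748). The call of *Atr* was lost without cont. mouse 3, *Atg7*-KO mouse 1 or *Atg7*-KO mouse 3 (adjusted p = 0.125 to 0.128), and also with upper-quartile scaling, with a minimum of 10 counts per mouse, with the replicate number as a block, with these 2 genotypes alone and with glmTreat (highest adjusted p = 0.281).

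**Figure D3:**
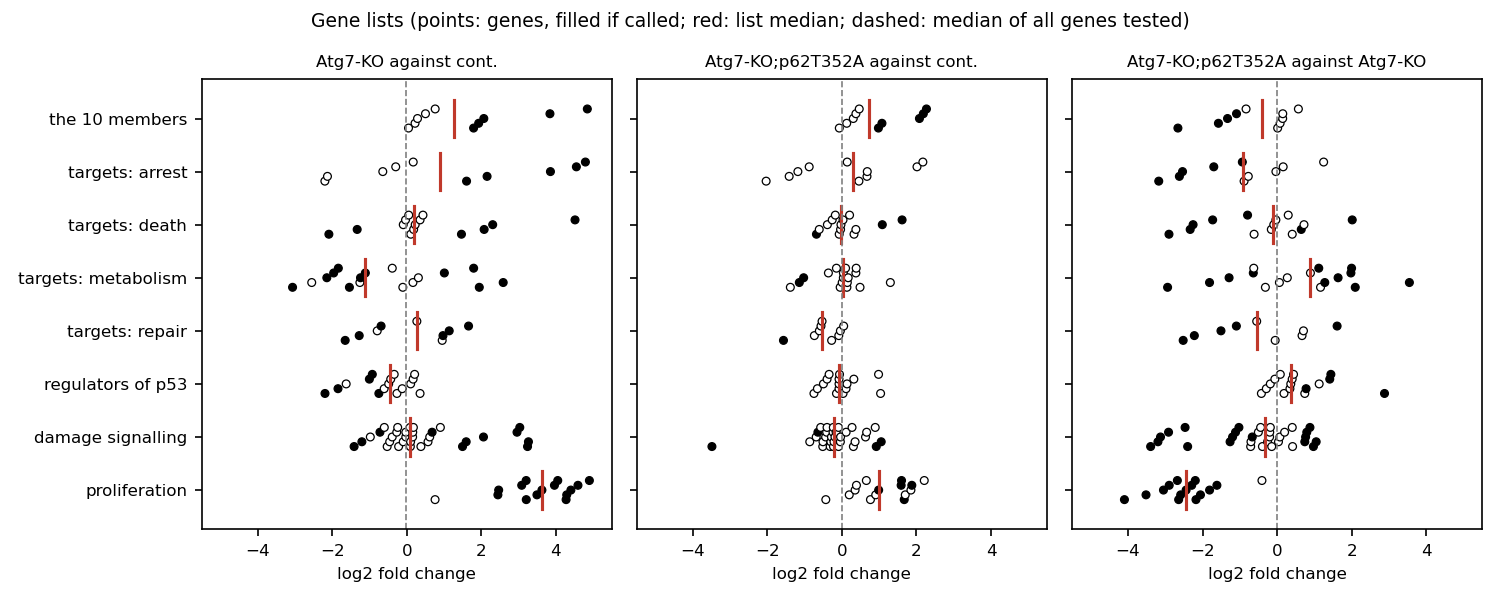
Log2 fold changes (horizontal axes) of the 10 genes and 7 lists in the 3 comparisons. Each point is a gene, filled if called, the red line is the median of the list and the dashed line that of all genes tested. In *Atg7*-KO against cont. the medians are 1.28 for the 10 genes and 3.63 for the proliferation markers, and genes of the metabolism and repair groups lie on both sides of 0.

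The same lists were then read in compound mutants against cont. Of the 50 other targets, 6 were called, 2 higher and 4 lower, a share (12.0%) near the 11.6% of all genes. *Tnfrsf10b* (log2 fold change 1.61, SE 0.45, adjusted p = 0.0447) and *Aen*, an exonuclease of apoptosis (1.08, SE 0.24, adjusted p = 0.0217), rose. *Polh* (-1.57, SE 0.44, adjusted p = 0.0462), *Sesn2* (-1.14, SE 0.21, adjusted p = 0.0125), *Sesn1* (-1.03, SE 0.21, adjusted p = 0.0163) and *Bid* (-0.68, SE 0.18, adjusted p = 0.036) fell. *Sesn2* was therefore lower than in cont. in compound mutants and higher than in cont. in *Atg7*-KO, with 5.56 ± 1.12, 19.4 ± 2.02 and 2.52 ± 0.242 normalized CPM in cont., *Atg7*-KO and compound mutants. None of the 10 cell-cycle targets was called by edgeR, with an unadjusted p under 0.05 for 5, and none of the 16 regulators was, with an unadjusted p under 0.05 for 2; DESeq2 called 1 regulator. Of the 32 genes of damage signalling, 4 were called (12.5%, near the 11.6% of all genes). These were *H2afx*, which encodes the histone H2AX that is phosphorylated at DNA breaks (1.05, SE 0.22, adjusted p = 0.0193), the ubiquitin ligase gene *Rnf168* (0.92, SE 0.18, adjusted p = 0.015), *Wee1* (-3.49, SE 0.83, adjusted p = 0.0272) and *Mdc1* (-0.64, SE 0.18, adjusted p = 0.0473). *Wee1* ranged from 3.12 to 26.7 normalized CPM among the cont. mice, and without cont. mouse 3 its log2 fold change was -1.74 (adjusted p = 0.011). Of these 10 genes, only *Sesn2* was called in all 9 fits that left out 1 mouse. *Rnf168* was lost without compound mutant 3 (adjusted p = 0.0598), *Sesn1* without compound mutant 1 or 3 (0.054 to 0.0598), *Aen* without any 1 of the compound mutants (0.0535 to 0.0598) and *H2afx* without these or cont. mouse 2 (0.051 to 0.0646). *Wee1* was kept only without a cont. mouse (otherwise 0.0517 to 0.0946), *Tnfrsf10b* without cont. mouse 1 or 3 (otherwise 0.0652 to 0.113), *Mdc1* without cont. mouse 1 or compound mutant 1 (otherwise 0.067 to 0.138), *Bid* without cont. mouse 1 (otherwise 0.0539 to 0.0926) and *Polh* without cont. mouse 3 (otherwise 0.0732 to 0.13). Without cont. mouse 1 the log2 fold change of *Polh* was -0.97.

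In compound mutants against *Atg7*-KO, 28 of the 50 other targets were called (56.0%), 10 higher and 18 lower, beside 51.0% of all genes, 24.7% higher and 26.2% lower. All 5 called genes of the cell-cycle group fell, among them *Sfn* (log2 fold change -3.18, SE 0.24, adjusted p = 3.13e-05), *Ckap2* (-2.62, SE 0.61, adjusted p = 0.00544) and *Psrc1* (-2.54, SE 0.56, adjusted p = 0.00437). In the cell-death group 5 fell and 2 rose, with *Tnfrsf10b* at -2.90 (SE 0.37, adjusted p = 2.63e-04), *Pmaip1* at -2.33 (SE 0.32, adjusted p = 3.91e-04), *Dram1* at -2.25 (SE 0.41, adjusted p = 0.00151), *Cdip1* at 2.02 (SE 0.39, adjusted p = 0.00207) and *Aen* at 0.65 (SE 0.23, adjusted p = 0.0389). In the metabolism group 7 rose and 4 fell. *Sco2* (log2 fold change 3.55, SE 0.32, adjusted p = 6.5e-05) and *Dcxr* (2.10, SE 0.33, adjusted p = 7.74e-04) rose and *Sesn2* (-2.94, SE 0.21, adjusted p = 2.59e-05) fell. *Lpin1*, a phosphatidate phosphatase, rose from 128 ± 11.1 to 513 ± 61.8 normalized CPM, and *Abhd4* and *Ak1* fell by 1.81 and 1.29 on the log2 scale.

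Of the repair group, 4 fell, with *Polh* at -2.52 (SE 0.43, adjusted p = 0.00113), *Pcna* at -2.22 (SE 0.24, adjusted p = 1.26e-04) and *Rrm2b* at -1.51 (SE 0.26, adjusted p = 0.00131), and *Ercc5* rose (1.61, SE 0.42, adjusted p = 0.0102). In the repair group 55.6% were thus called, near the share of all genes. Of the 16 regulators 4 rose and none fell (25.0% called, below the 51.0% of all genes). These were *Crebbp* (2.88, SE 0.50, adjusted p = 0.00119), *Mdm4* (1.44, SE 0.50, adjusted p = 0.034), the kinase gene *Hipk2* (1.41, SE 0.29, adjusted p = 0.00287) and, named after its value was seen, *Usp7* (0.78). Of the 32 genes of damage signalling 17 were called (53.1%, near the share of all genes), 6 higher and 11 lower. *Wee1*, the kinase that holds cells before mitosis (-3.39, SE 0.82, adjusted p = 0.00664), and *Fanci* (-3.20, SE 0.50, adjusted p = 7.04e-04) were among those that fell, while *Prkdc* (1.05, SE 0.24, adjusted p = 0.00532), *Brca2* (0.98, SE 0.33, adjusted p = 0.0316) and the ligase gene *Lig4* (0.88, SE 0.23, adjusted p = 0.00892) rose. Of the proliferation markers, 14 of 15 fell in the same comparison, and a link to the changes in these lists was not tested. The calls of *Aen*, *Brca2* and *Mdm4* held in 3, 4 and 4 of the 9 fits that left out 1 mouse. All 3 were lost without any 1 of the *Atg7*-KO mice and without compound mutant 1 or 3, and *Aen* also without compound mutant 2 (adjusted p = 0.0513 to 0.138 for *Aen*, 0.0599 to 0.103 for *Brca2* and 0.0669 to 0.103 for *Mdm4*). With glmTreat these 3 calls and that of *Lig4* were lost (0.0871 to 0.333), with upper-quartile scaling those of *Aen* (0.0749) and *Brca2* (0.051), and that of *Aen* also with a minimum of 10 counts per mouse (0.0634) and without the mice numbered 1 (0.056).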

How the data were processed

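From the livers, the authors sequenced poly(A) RNA in single-end reads of 75 bases, trimmed them with Trim Galore, aligned them to mm10 by STAR and counted them by RSEM. What they deposited is 1 column of expected counts per mouse, not scaled to library size. The tool versions, the annotation and any use of strand are not given in the sources used here. The paper names TRIzol for RNA extraction, the labels RNeasy. Nothing in the labels says whether mice were littermates.

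Counts were rounded to whole numbers. Genes were kept by filterByExpr, scaled by TMM and fitted with edgeR 4.0.16 (glmQLFit, glmQLFTest, 3 genotypes in 1 fit; R 4.3.3). A gene was called at a Benjamini-Hochberg adjusted p under 0.05 and a fold change over 1.5. Standard errors come from the F statistic. Figures were drawn in Python 3.11.15 with matplotlib 3.10.9. Steps were tested on simulated counts in which all genes had the same spread and few genes changed. The real genotypes differed in spread and in many genes, so that test does not bear on the calls made here.

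The 10 genes and all lists were chosen with earlier results of these data known. Genes named from a list are up to 3 with the largest rise and fall among called genes with a mean of at least 1 CPM and no overlap between mice; 1 gene that this rule chose is not reported here. Alternatives were DESeq2 1.42.0, its size factors, upper-quartile scaling, other filters, glmTreat, FDR alone, leaving out the top 20 genes by counts, 2 genotypes per fit, the replicate block, each mouse left out and the mice numbered 1 left out. A term for *Xist* above or below 1000 counts was added after seeing the data. Positions are from GENCODE vM21 (GRCm38) and promoter sequences from RefSeq (GRCm38.p6).

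Same-numbered mice of different genotypes deviated together with correlations from -0.202 to 0.321 (mean 0.146 over 9 pairs, -0.0705 over 18 other pairs). Not every pair was above 0.1, and the labels do not say what a number marks, so the numbers were not taken to pair the mice.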

Additional observations from a re-analysis of the deposited data

How the results depend on the processing

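In *Atg7*-KO against cont., the calls of *Phlda3*, *Eda2r*, *Zmat3*, *Cdkn1a* and *Ccng1* held under every alternative in which they were tested, and *Trp53inp1* was also called without cont. mouse 3 (log2 fold change 1.18, adjusted p = 0.0219). Requiring at least 10 counts in every mouse removed *Eda2r* and *Phlda3* from the test, which left 3, 3 and 2 of the 10 genes called in *Atg7*-KO against cont., compound mutants against cont. and compound mutants against *Atg7*-KO, and 5 and 11 genes of damage signalling in the first and last of these. The glmTreat test, which asks for a fold change significantly over 1.5, called 1 of the 10 genes, 0 of the other targets and 0 of damage signalling in compound mutants against cont., 3 regulators in *Atg7*-KO against cont., and 2 regulators and 10 genes of damage signalling between the knockout genotypes (101 genes higher and 152 lower in all in compound mutants against cont., instead of 870 and 743). With the 2 genotypes alone in the fit, 0 of the 10 genes, of the other targets and of damage signalling were called in compound mutants against cont., while 5, 10 and 6 had an unadjusted p under 0.05 (8 other targets and 3 genes of damage signalling with glmTreat). DESeq2 called 10 other targets and 1 regulator there, and the *Xist* term 1 regulator. Without the mice numbered 1, 10 other targets, 4 regulators and 8 genes of damage signalling were called there, and 8 regulators in *Atg7*-KO against cont. Without cont. mouse 1 alone, the library that stood apart, these counts were 9, 4, 8 and 8. Calls over all genes rose in both settings as well. In compound mutants against cont. they were 1314 higher and 1661 lower without the mice numbered 1, and 1514 and 1731 without cont. mouse 1. In *Atg7*-KO against cont. they were 3816 and 3833, and 3984 and 3976, instead of 3006 and 3074. The cause was not tested.

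Leaving out 1 mouse at a time, the counts called in *Atg7*-KO against cont. were 5 to 6 of the 10 genes, 24 to 35 other targets, 4 to 8 regulators and 8 to 15 genes of damage signalling. They were 1 to 6, 1 to 9, 0 to 4 and 0 to 8 in compound mutants against cont., and 3 to 5, 26 to 33, 3 to 6 and 14 to 18 between the knockout genotypes.

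When the replicate number entered as a block, 3 other targets (instead of 6) and 4 of the 10 genes were called in compound mutants against cont., where *Zmat3* was lost (adjusted p = 0.0679). *Trp53inp1* was called in *Atg7*-KO against cont. (log2 fold change 0.90, adjusted p = 0.0434) and between the knockout genotypes (-0.94, adjusted p = 0.0303), as was *Bax* there (0.60, adjusted p = 0.0485). The block changed no other call of the 10 genes. *Bax* and *Trp53inp1* were also called between the knockout genotypes with these 2 alone in the fit (adjusted p = 0.00502 and 0.0175), *Bax* with the *Xist* term (0.0294), and *Trp53inp1* with DESeq2 (0.0394), upper-quartile scaling (0.0493) and without cont. mouse 2, cont. mouse 3 or compound mutant 3 (0.036 to 0.0407).

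Under upper-quartile scaling, the median over all genes went from 0.00 to -0.13 between the knockout genotypes and from -0.03 to 0.08 in *Atg7*-KO against cont., on the log2 scale, and the calls went from 3443 higher and 3652 lower to 2897 and 4141, and from 3006 and 3074 to 3366 and 2581. Changes of sign were seen in log2 fold changes that passed no test. In *Atg7*-KO against cont., *Trp53* went to -0.087 without the mice numbered 1, and leaving out 1 mouse at a time it ranged from -0.13 to 0.14 and *Mdm2* from -0.059 to 0.36. In compound mutants against cont., *Trp53* went to -0.11 and *Mdm2* to -0.040 without the mice numbered 1, and with 1 mouse left out *Trp53* ranged from -0.047 to 0.23 and *Trp53inp1* from -0.41 to 0.36. Between the knockout genotypes, *Trp53* went to -0.026, *Cdkn1a* to -0.011, *Mdm2* to -0.050 and *Bbc3* to -0.22 without the mice numbered 1. *Trp53* went to -0.058 with upper-quartile scaling, and *Bbc3* to -0.012 with DESeq2 or its size factors, -0.13 with upper-quartile scaling, -0.0049 with no filter, -0.061 with at least 10 counts, and -0.12 to 0.21 with 1 mouse left out. The cont. mice held at most 12 counts of *Phlda3* and 10 of *Eda2r*, so the fold changes of these genes rest on few counts. Among genes named from the lists, the 10 of compound mutants against cont. were not called with glmTreat or with the 2 genotypes alone. The block also ended the calls of *Tnfrsf10b*, *Polh*, *Mdc1* and *Bid* there (adjusted p = 0.0583 to 0.0985), no filter those of *Mdc1* and *Bid* (0.0791 and 0.0565), the *Xist* term that of *Polh* (0.0612), and leaving out the mice numbered 1 those of *Polh* (log2 fold change -0.79, adjusted p = 0.185) and *Tnfrsf10b* (0.93, adjusted p = 0.0832).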
